A study of Mus musculus with 10 samples.

Results

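The calcium/calmodulin-dependent protein kinases and 3 calmodulin-related genes were followed in mouse hemibrain RNA. The members were listed by gene symbol as Camk2a, Camk2b, Camk2d, Camk2g, Camk4, Camkk1, Camkk2, Camkv, Nrgn and Pcp4. The list was not filtered on a measured value, but it was chosen with earlier results of these data known. The arrays held all 10 of them, among 18539 genes that could be named through a RefSeq accession. The 10 genes were read by 15 probes: 3 for Camk2d, 2 each for Camk2a, Camk4 and Camkk2, and 1 each for the other 6.

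The study fed male C57BL/6J mice either a standard lab diet (SD) or a fish oil diet rich in n-3 polyunsaturated fatty acids (FD) and profiled brain RNA on 2-colour Agilent arrays. The animals entered the diets at 3 weeks, stayed on them for about 20 weeks and were sampled at 5 months of age. Each of the 10 arrays carried the left hemibrain RNA of 1 animal in Cy-5 and another RNA in Cy-3. The labels put every Cy-5 animal on FD, the descriptions of the arrays call them controls, and the methods speak of both diets, so that the diet of an array could not be settled and no diet comparison was made. The 10 hemibrains were treated as 1 group. The Cy-3 RNA is a pool of SD hemibrains by the labels of that channel, but a commercial reference RNA by the labelling protocol and the methods. The data went against a hemibrain pool: 8 of 9 neuron markers were higher in Cy-5, with a median log2 ratio of 4.87, and 7 of 7 markers of proliferating cells were lower, with a median of -6.39. Every value below is therefore a ratio of hemibrain to that Cy-3 RNA. All arrays had the same dye orientation, so dye and sample cannot be told apart.

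Calmodulin is a small protein that binds calcium and then switches on its target enzymes. CaMKII, built from alpha, beta, gamma and delta subunits encoded by Camk2a, Camk2b, Camk2g and Camk2d, is very abundant at excitatory synapses and is best known for its part in synaptic plasticity and memory. The CaM kinase kinases Camkk1 and Camkk2 phosphorylate CaMKI and CaMKIV, and CaMKIV acts in the nucleus, where it phosphorylates the transcription factor CREB. Neurogranin (Nrgn) and PEP-19 (Pcp4) are small proteins that bind calmodulin through an IQ motif.

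Slides 2 and 3 carried 4 arrays each, and slides 1 and 4 carried 1. A probe is called detected here where the scanner software flagged it as well above background. On 9 arrays, 68.2% to 76.9% of probes were detected in Cy-5. The array of animal C10-434 reached 49.6%, and its median background-subtracted Cy-5 signal was 26.9, against 57.2 to 159 on the others. Its median Cy-3 signal, 119, lay within their range of 95.8 to 125. Values that rest on C10-434 are given with and without it. By most of its marker lists the RNA was of brain. All 7 astrocyte markers and all 7 oligodendrocyte markers were called higher in Cy-5, as were 6 of 7 microglia markers. No neuron marker except Syn1 (-0.27) was lower. The thalamus markers were mixed, with 4 of 7 called higher and 3 lower, and 3 of 5 endothelium markers were called higher. Over all named genes, 41.7% were called higher and 39.1% lower.

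All 10 members were higher in the hemibrain than in the Cy-3 RNA when each was read by its brightest probe (limma against a log2 ratio of 0, Benjamini-Hochberg adjusted over 41174 probes). Of all named genes, 41.7% were called higher by the same rule and 39.1% lower, whereas 0 members were lower. The brightest probe was chosen on its Cy-5 signal, which is the numerator of the ratio. That choice can favour higher ratios, for members and for all other genes with several probes. With the mean over all probes of a gene, 9 members were called higher and 1, Camk2d, lower. The median of the members' mean log2 ratios was 4.21, beside 0.056 for all genes. Against a 2-fold difference, 9 of the 10 members passed, beside 20.3% of all genes. The same number had a log2 ratio of at least 1 on every array, beside 15.4% of genes, and Camk2d was the exception both times. In RNA from a whole hemibrain, more cells of a type and more RNA per cell cannot be told apart. The representing probe of every member was detected in both dyes on all 10 arrays.

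Among the CaMKII subunits, Camk2b and Camk2a had far higher ratios than Camk2g and Camk2d. For Camk2b, the beta subunit, which also binds actin, the log2 ratio ran from 5.16 through a median of 5.52 to 6.66. Its mean was 5.62 ± 0.43 (SD, n = 10), a 49.1-fold difference, above the mean ratio of 97.9% of named genes. The highest value was that of C10-434, and the other 9 arrays ended at 5.82.

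For Camk2a, the alpha subunit of forebrain excitatory neurons, the lowest value was 4.30, the median 4.52 and the highest 5.48, for a mean of 4.64 ± 0.32 (SD, n = 10) or 24.9-fold. Camk2a was the steadiest of the strongly raised members once C10-434 was set aside, since the other 9 arrays spanned only 4.30 to 4.71. Camk2g, the gamma subunit, which is expressed in many tissues, ran from 1.78 through 2.12 to 2.43 with a mean of 2.12 ± 0.19 (SD, n = 10), a 4.34-fold difference. Its highest array was C10-423, and C10-434 lay inside the range of the others.

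Camk2d, the delta subunit and the main form in heart, was the member nearest to the Cy-3 RNA. By its brightest probe the log2 ratio ran from -0.016 on C10-413 through a median of 0.39 to 0.64, and 9 of 10 arrays were above 0. The mean of 0.36 ± 0.21 (SD, n = 10) passed the test against 0 (limma, adjusted p = 0.000928) but not that against a 2-fold difference (adjusted p = 1). The direction depended on the probe. A second probe gave 0.11 ± 0.40 (SD, n = 10), from -0.40 to 0.83, and was not called (limma, adjusted p = 0.436). The third was below 0 on all 10 arrays, from -1.87 to -1.27, with a mean of -1.52 ± 0.22 (SD, n = 10; limma, adjusted p = 1.24e-09). All 3 probes are assigned to 1 RefSeq transcript, and their mean, -0.35, was called lower (limma, adjusted p = 0.000143).

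The upstream kinases came next. Camkk1, the CaM kinase kinase alpha, ran from 3.40 through 3.78 to 4.29, with a mean of 3.78 ± 0.24 (SD, n = 10) or 13.7-fold. Camkk2, the beta form, which also activates AMP-activated kinase, ran from 2.01 through 2.28 to 2.71, with a mean of 2.31 ± 0.21 (SD, n = 10) or 4.97-fold. Both were lowest on C10-413 and highest on C10-434, and all 10 arrays put Camkk1 above Camkk2. Camk4 ran from 1.52 on C10-437 through 2.06 to 2.80 on C10-434, with a mean of 2.10 ± 0.35 (SD, n = 10), a 4.30-fold difference. The other 8 arrays spanned 1.77 to 2.36.

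Of the 4 highest ratios, 3 belonged to genes that are not active kinases. Nrgn, the neurogranin of dendritic spines, ran from 5.12 through 5.48 to 6.68, with a mean of 5.57 ± 0.45 (SD, n = 10) or 47.5-fold. Pcp4, which is strong in Purkinje cells and also present in other neurons, ran from 5.15 through 5.40 to 6.69, with a mean of 5.58 ± 0.48 (SD, n = 10) or 47.7-fold. Camkv, a kinase-like protein of synapses without kinase activity, ran from 4.69 through 5.12 to 6.41, with a mean of 5.25 ± 0.50 (SD, n = 10), above that of 97.3% of named genes. All 3 were highest on C10-434, and without it their highest values were 5.83 for Nrgn, 6.01 for Pcp4 and 5.68 for Camkv. Except for Camk2d, the adjusted p-values of the representing probes ran from 3.86e-13 for Camkk1 to 1.13e-09 for Camk4 (limma, n = 10).

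**Figure D1:**
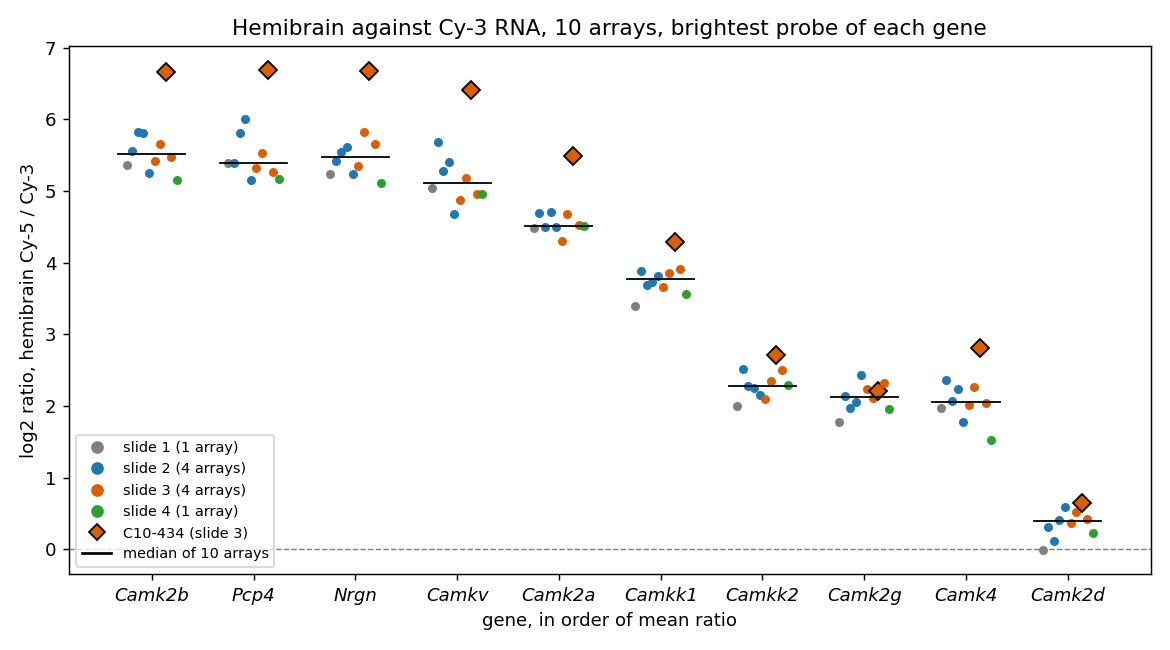
Log2 ratio of hemibrain Cy-5 over Cy-3 RNA (y axis) for the brightest probe of each of the 10 genes (x axis, in order of mean ratio). Each point is 1 array, coloured by slide, the diamond is C10-434 and the line is the median of 10 arrays. The first 5 genes lie above 4 on all arrays, and Camk2d lies between -0.016 and 0.64.

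Ordered by mean ratio, the members were Camk2b, Pcp4, Nrgn, Camkv, Camk2a, Camkk1, Camkk2, Camk2g, Camk4 and Camk2d. The order is one of ratios to the Cy-3 RNA and not of mRNA levels. Neighbours were compared within arrays by exact two-sided sign-flip tests over the 1024 sign patterns, adjusted over 15 pairs, for which the smallest unadjusted p is 0.00195. Camk2b, Pcp4 and Nrgn did not differ beyond their spread: the paired difference was 0.042 ± 0.12 (SD, n = 10; exact test, adjusted p = 0.322) between Camk2b and Pcp4 and 0.0052 ± 0.24 (SD, n = 10; exact test, adjusted p = 0.941) between Pcp4 and Nrgn.

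Nrgn exceeded Camkv by 0.32 ± 0.28 on 9 of 10 arrays (SD, n = 10; exact test, adjusted p = 0.0146). Camkv exceeded Camk2a by 0.61, Camk2a exceeded Camkk1 by 0.86, Camkk1 exceeded Camkk2 by 1.47 and Camk4 exceeded Camk2d by 1.75, each on 10 of 10 arrays (exact test, adjusted p = 0.00326). At the lower end, Camkk2 and Camk2g differed by 0.19 ± 0.24 (SD, n = 10; exact test, adjusted p = 0.0533), and Camk2g and Camk4 by 0.014 ± 0.37 (SD, n = 10; exact test, adjusted p = 0.941). The sequence of the 10 genes was the same without C10-434, but it depended on the probe. With the mean over all probes of a gene, Camk2a (2.82) stood below Camkk1 (3.78), and Camk4 (2.56) stood above Camk2g (2.12) and Camkk2 (1.81).

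Of the 15 member probes, 13 were called higher and 1 lower, beside 37.4% and 39.5% of all probes (limma, adjusted p under 0.05). Probes of the same gene gave different ratios in 3 genes besides Camk2d. The second Camk2a probe, assigned to another RefSeq transcript, ran from 0.41 to 1.58 with a mean of 1.00 ± 0.41 (SD, n = 10), which was 3.64 below the first on average and lower on all 10 arrays (exact test, adjusted p = 0.00326). It was dim, detected on 9 arrays in Cy-5 and on 6 in Cy-3. The second Camk4 probe, of the same transcript as the first, lay at 3.02 ± 0.26 (SD, n = 10), higher than the first on all 10 arrays. For Camkk2, a probe of another transcript gave 1.30 ± 0.30 (SD, n = 10), lower than the first on all 10 arrays. The direction was the same for both probes in these 3 genes, and its size was not. Both Camk4 and Camkk2 differences had an adjusted p of 0.00326 in the exact test.

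**Figure D2:**
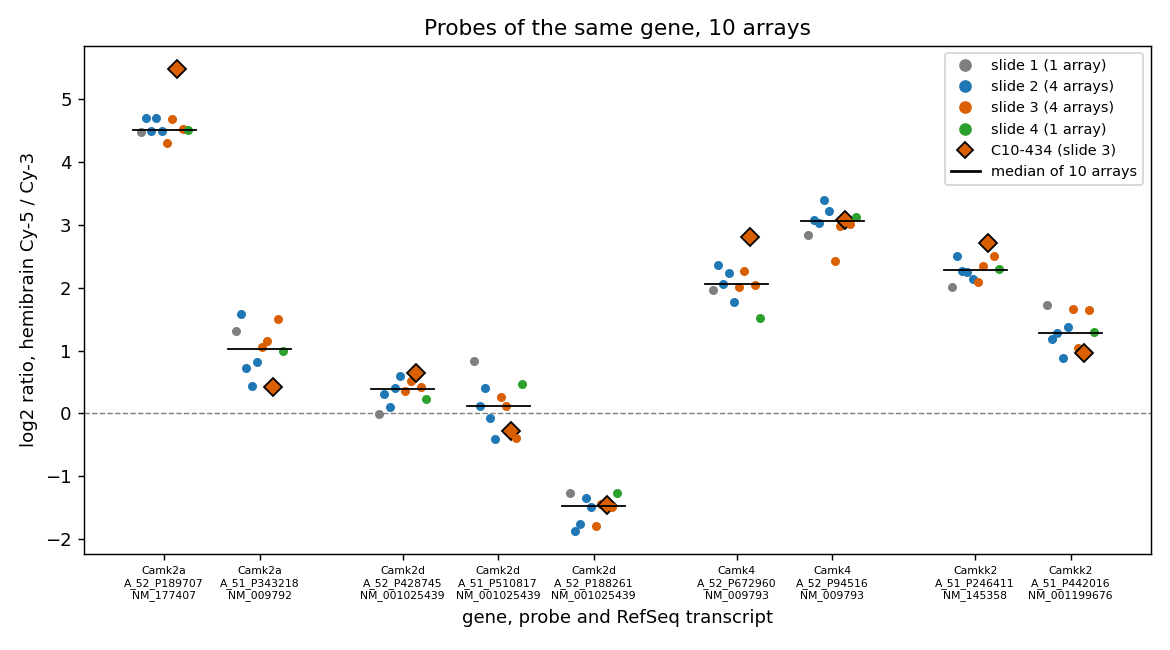
Log2 ratio of hemibrain Cy-5 over Cy-3 RNA (y axis) for every probe of Camk2a, Camk2d, Camk4 and Camkk2 (x axis, with the RefSeq transcript each is assigned to). Points are the 10 arrays, coloured by slide, and lines are medians. The third Camk2d probe lies below 0 on all 10 arrays, whereas the first lies above 0 on 9.

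The size of the shifts over the animals differed between members. By their brightest probes, all 10 were above their own median over the arrays on C10-434, and none were on C10-413. Other probes of the same genes did not all follow. On C10-413, the second probes of Camk2d (0.83) and Camkk2 (1.72) had their highest value of all arrays. Of the remaining probes, only the second one of Camk4 (2.84) lay below its own median (3.06) there. Relative to the median of the other 9 arrays, C10-434 stood higher by 1.37 for Camkv, 1.30 for Pcp4, 1.26 for Nrgn, 1.19 for Camk2b and 0.97 for Camk2a. It was higher by 0.76 for Camk4, 0.55 for Camkk1, 0.43 for Camkk2, 0.28 for Camk2d and 0.093 for Camk2g. The 5 members of highest ratio thus shifted most, but the shifts did not follow the order of the ratios. Camk2b, of the highest ratio, shifted less than Camkv, Pcp4 and Nrgn. Camk4 shifted more than Camkk1 and Camkk2, and Camk2d more than Camk2g. Among 368 genes detected in both dyes on all arrays, with a median ratio above 4 on the other 9, the median deviation of this array was 0.58, with quartiles of 0.19 and 1.06. It was 0.15 for the 959 genes between 2 and 4, -0.015 for the 3960 between 0 and 2, and 0.17 for the 984 below -2. Camkv, Pcp4, Nrgn and Camk2b lay above the upper quartile of the first group, and Camk2a lay within its middle range.

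The single channels of that array differed too. The background-subtracted Cy-5 signal of Nrgn was 38967, against 49335 to 188241 elsewhere, and its Cy-3 signal was 2093, against 3123 to 4433. The Cy-5 and Cy-3 signals of Camk2b, Camkv and Pcp4 were likewise below those of every other array. For Camk2a, background-subtracted Cy-5 was lower than on any other array at 13045, while Cy-3, 1618, lay inside the range of 1183 to 2796. The ratio, however, is formed from processed signals, which are also dye-normalized. By these, Camk2a on C10-434 had a Cy-5 signal of 92775, inside the range of 66093 to 159257 over the arrays. Its processed Cy-3 signal, 2074, was the lowest of all arrays. The second Camk2a probe was detected in neither dye on this array. The second probes of Camk4 and Camkk2, detected in both dyes on all arrays, deviated there by 0.040 and -0.34, against 0.76 and 0.43 for the brighter probes. The part of the low Cy-5 signal in these ratios was not tested. Under 6 ways of processing the signals, C10-434 was the highest array each time for 8 of the 10 members, read by their brightest probes. For Camk2d it was so in 3 of the 6 and for Camk2g in 0. The deposited table, counted among the 6, nearly repeats the values used here (mean log2 ratio of Camk2a 4.64 in both). The 6 are therefore not independent.

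**Figure D3:**
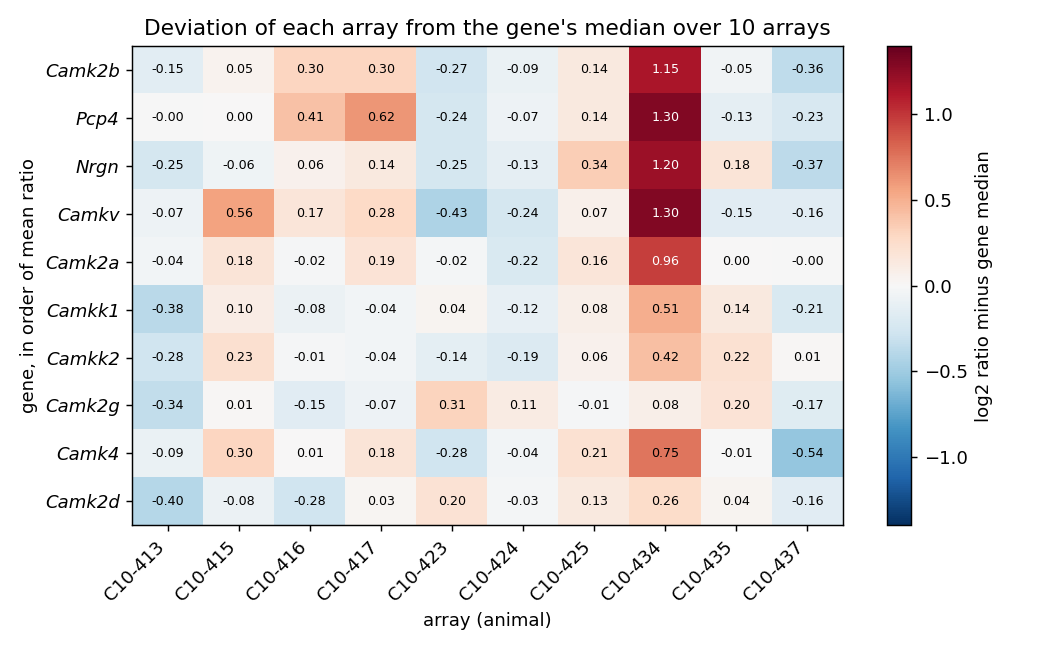
Log2 ratio of each gene's brightest probe on each array less its median over the 10 arrays (colour and printed value). Arrays are in columns and genes in rows in order of mean ratio. The column of C10-434 is positive for all 10 genes and reaches 1.30 for Pcp4 and Camkv, and the column of C10-413 holds no value above 0.

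Across the 45 pairs of members, the Pearson correlation over the 10 arrays had a median of 0.75, and 34 pairs exceeded 0.5. Without C10-434 the median was 0.47, and 18 pairs did. The arrays share slides and the Cy-3 RNA, and these correlations are given as a description. The closest pair was Camk2b and Pcp4, with r = 0.97 over 10 arrays and 0.92 over the 9 without C10-434. Camk2g stood apart from the genes of high ratio, with r = -0.081 to Camkv and -0.080 to Pcp4, but followed Camk2d at 0.81 with all arrays and 0.85 without C10-434.

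The promoters of Camk2b and Pcp4 are shown because these genes varied most alike, that of Nrgn because its ratio lay next to theirs, and that of Camk2d because it was lowest. RefSeq promoter windows of assembly GRCm38.p6 were at hand for 7 of the 10 members. The 250 bases before the annotated start were read 5′ to 3′ on the gene's strand. They were searched on both strands for the cAMP response element TGACGTCA, its core TGACG, the GC box GGGCGG bound by Sp1-family factors, and TATAAA. Capitals mark GGGCGG or its reverse complement, CCGCCC. The windows are chr11:6065749-6065998 on the minus strand for Camk2b, chr16:96467356-96467605 on the plus strand for Pcp4, chr9:37552746-37552995 on the minus strand for Nrgn and chr3:126596701-126596950 on the plus strand for Camk2d.
Camk2b: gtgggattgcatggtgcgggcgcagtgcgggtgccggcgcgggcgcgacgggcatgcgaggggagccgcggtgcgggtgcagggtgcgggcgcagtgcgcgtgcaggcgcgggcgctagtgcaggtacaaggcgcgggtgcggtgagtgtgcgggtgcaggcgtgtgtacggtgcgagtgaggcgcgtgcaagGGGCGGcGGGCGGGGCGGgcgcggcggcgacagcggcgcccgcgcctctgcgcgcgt
Pcp4: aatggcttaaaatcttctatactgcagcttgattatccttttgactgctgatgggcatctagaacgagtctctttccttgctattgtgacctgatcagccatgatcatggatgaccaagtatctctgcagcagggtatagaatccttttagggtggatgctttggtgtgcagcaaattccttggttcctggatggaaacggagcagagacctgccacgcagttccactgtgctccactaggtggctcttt
Nrgn: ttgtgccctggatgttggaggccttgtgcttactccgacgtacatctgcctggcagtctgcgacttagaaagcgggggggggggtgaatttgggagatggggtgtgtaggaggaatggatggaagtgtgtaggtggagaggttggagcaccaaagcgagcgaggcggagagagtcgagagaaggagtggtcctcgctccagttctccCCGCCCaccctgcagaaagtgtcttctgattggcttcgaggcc
Camk2d: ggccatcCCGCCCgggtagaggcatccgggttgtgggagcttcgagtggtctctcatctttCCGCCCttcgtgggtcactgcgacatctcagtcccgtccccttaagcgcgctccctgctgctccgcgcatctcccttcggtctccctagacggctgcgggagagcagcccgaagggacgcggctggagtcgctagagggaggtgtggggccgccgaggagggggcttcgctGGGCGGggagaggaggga

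The windows of the most alike pair were unlike in composition. That of Camk2b was 78.4% G and C, with 3 GC boxes, of which the last 2 share 1 base, whereas that of Pcp4 was 46.8% G and C and held none. Nrgn, at 58.4%, had 1 and Camk2d, at 68.4%, had 3. Of the other windows read, Camkv held 3, Camkk1 held 2 and Camkk2 held 1, so that 6 of 7 members had at least 1, beside 32.74% of 32851 windows of the same length. TGACG stood only in Camkk1, beside 17.77% of all windows. Neither TGACGTCA (1.55% of windows) nor TATAAA (12.37%) was found in any of the 7. These are matches of letters only.

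None of the 15 member probes was called different between the 2 slides with 4 arrays each, compared because a slide is the technical batch the files name. The slides hold different animals, so slide and animal cannot be told apart. Over all probes, limma called 30 of 40299, or 0.0744%, and 10% had an unadjusted p under 0.05, which no member probe reached. The largest difference among the representing probes was that of Nrgn, 0.43 higher on slide 3 (95% interval -0.19 to 1.04; limma, adjusted p = 0.721), where means were 5.46 on slide 2 and 5.88 on slide 3. For Camk2a the means were 4.60 and 4.75, and the interval of the difference ran from -0.42 to 0.71. Slide 3 holds C10-434. Without it, the differences of Camk2a (-0.10), Camk2b (-0.095), Camkv (-0.25) and Pcp4 (-0.22) changed sign, and that of Nrgn fell to 0.16.

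The rest of the pathway was read from 7 lists of 59 genes, of which 55 had a named probe. Of these, 44 were called higher in hemibrain, 7 lower and 4 neither (limma, adjusted p under 0.05), and the median log2 ratio was 2.05, beside 41.7% higher, 39.1% lower and a median of 0.056 over all named genes. Calm2 (3.37 ± 0.21; SD, n = 10) and Calm3 (3.69 ± 0.25; SD, n = 9), which encode calmodulin itself, were both called higher. Calm4 (0.76 ± 0.73), an epidermal relative, was also called higher but was detected in Cy-5 on only 1 array, and Calml3 on none.

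The genes that restrain CaMKII were all called higher, 4 of 4, with a median of 4.50. Camk2n1, which encodes an inhibitor protein, gave 6.34 ± 0.29 (SD, n = 10), beside 5.62 for Camk2b, the highest member. The other inhibitor gene, Camk2n2, gave 3.46 ± 0.21 (SD, n = 9). The phosphatase genes Ppm1e (5.55 ± 0.21; SD, n = 10) and Ppm1f (0.95 ± 0.20; SD, n = 8) lay far apart.

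Of 13 other calmodulin-dependent or related kinases, 9 were called higher and 3 lower, with a median of 1.87. Pnck, the beta form of CaMKI, led with 5.16 ± 0.35 (SD, n = 10), ahead of the death-associated kinase Dapk1 (4.51) and the doublecortin-like kinase Dclk1 (4.44). The 3 that were lower were Dapk2 (-0.50), Eef2k (-0.46), the kinase of elongation factor 2, and the muscle myosin kinase Mylk2 (-0.34). The CaMKI genes downstream of the CaM kinase kinases covered a wide range. It ran from 0.56 ± 0.50 for Camk1 through 1.87 ± 0.41 for Camk1d (SD, n = 10) to the 5.16 of Pnck.

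All 9 genes of calcineurin, the calmodulin-dependent phosphatase, and its regulators were called higher, with a median of 2.14. They ran from 0.51 for Rcan3 to 6.01 for Rcan2, both regulators, and the catalytic subunit gene Ppp3ca gave 3.17 ± 0.20 over the 5 arrays that held a value. Among enzymes and pumps that calmodulin switches on, 8 of 9 measured genes were called higher, with a median of 4.54. The adenylyl cyclase Adcy1 gave 5.77 ± 0.45 (SD, n = 10) and the phosphodiesterase Pde1a gave 5.23 ± 0.29 (SD, n = 10). Nos1, the neuronal nitric oxide synthase, gave 0.33 ± 0.53 (SD, n = 10) and was not called (limma, adjusted p = 0.0667).

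The list of other calmodulin-binding proteins was mixed in the size of its ratios. Gap43, the growth-cone relative of neurogranin, gave 6.43 ± 0.43 (SD, n = 10) and Pcp4l1, the relative of Pcp4, 4.09 ± 0.27 (SD, n = 10), whereas the list median was 0.58, with 5 of 6 called higher. Marcksl1, at -0.20 ± 0.49 (SD, n = 10), was not called. Downstream of CaMKIV, the list of CREB and its partners had the lowest median, 0.23. Of 9 measured genes, 5 were called higher and 4 lower, a mix of directions as over all genes (41.7% and 39.1%). Mef2c (3.59) and Crem (1.78) had the highest ratios, and Atf1 (-2.89) and the coactivator Crebbp (-1.11) the lowest.

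**Figure D4:**
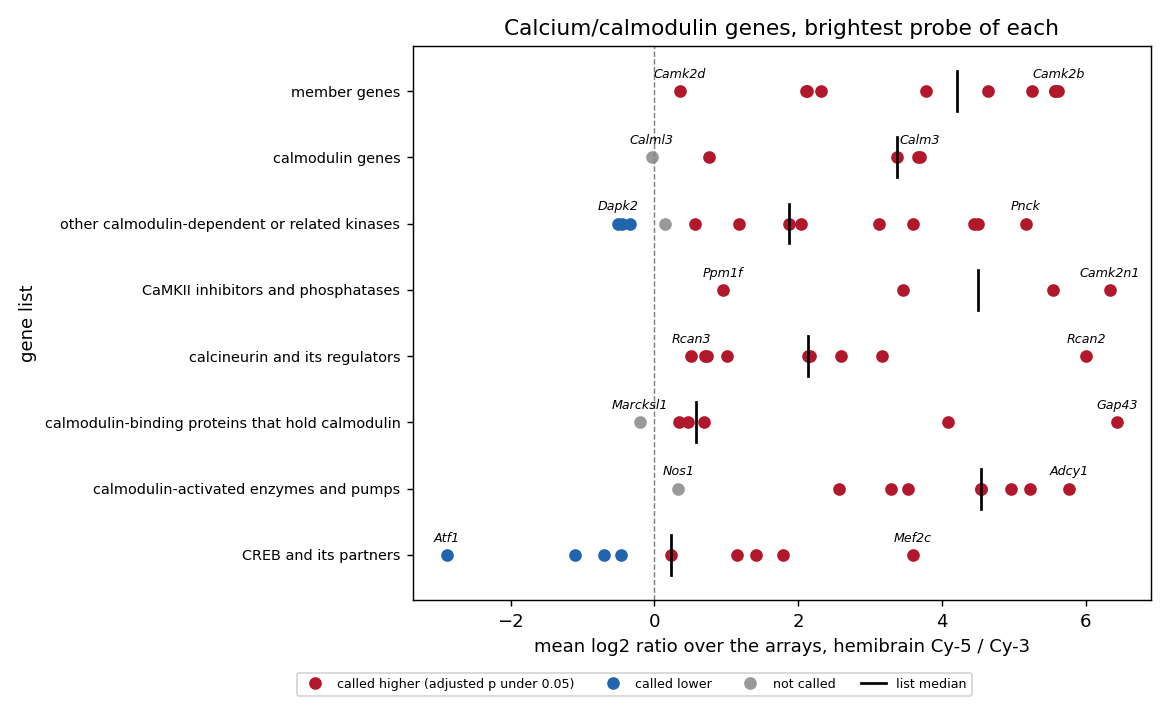
Mean log2 ratio of hemibrain Cy-5 over Cy-3 RNA (x axis) for the 10 members and 55 other genes in 7 lists (y axis). Red points were called higher, blue lower and grey neither (limma, adjusted p), black bars are list medians and the lowest and highest gene of each list are named. The medians are highest for CaMKII inhibitors and phosphatases (4.50) and calmodulin-activated enzymes and pumps (4.54), and lowest for CREB and its partners (0.23).

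The genes whose ratio varied most like that of Camk2a over the 10 arrays were sought among 10501 genes detected in both dyes on all arrays, with members left out. They were Dscam (r = 0.97, rho = 0.95), Nnat (r = 0.97, rho = 0.83), Tenm2 (r = 0.96, rho = 0.81), Gng3 (r = 0.96, rho = 0.90) and Tppp (r = 0.96, rho = 0.93). These are the 5 highest Pearson correlations, given as a description. Without C10-434 they lay between 0.76 for Tppp and 0.84 for Dscam, and the mean log2 ratio of the 5 genes ran from 3.39 for Nnat to 5.67 for Tppp.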

How the data were processed

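RNA of 10 left hemibrains (Cy-5) and 1 other RNA (Cy-3) was measured on 2-colour arrays. The authors scanned them and deposited Feature Extraction output (version 10.10.1.1 in the file headers), namely intensities per dye, a log10 ratio per spot and flags for background, saturation and outliers. The authors also deposited a table of log2 values, identified as ratios of Cy-5 to Cy-3 by its match to the scanner values. The methods name within-array LOWESS normalization in GeneSpring, but not whether the table was taken before or after it.

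The value used was log2 of processed Cy-5 over processed Cy-3 intensity, which the software had background-subtracted and dye-normalized. Control spots and outlier spots were left out, and spots of a probe were averaged. Probes were named by RefSeq accession, which 27198 of 41174 (66.06%) matched, and the probe brightest in Cy-5 on average stood for its gene. Ratios were tested with limma 3.58.1 in R 4.3.3 (lmFit, eBayes, Benjamini-Hochberg, adjusted p under 0.05) and, against a 2-fold difference, with limma's treat. The fit leaves out the spread of the Cy-3 RNA. Array number and signal over background limit the precision. No 2 arrays held identical values, and pairs correlated at 0.868 to 0.967. On simulated data, 85.5% of 200 probes changed by 1 (log2) were recovered for the hemibrain against Cy-3, and 54.5% of 200 changed by 1.5 for the slide comparison. Of the unchanged probes, 7 and 9 were called. The simulations drew independent noise, and the first changed 200 of 40060 probes. In the data 37.4% of probes were called higher and 39.5% lower, so the first rate does not give the power of that comparison.

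All members were named, together with up to 4 genes of highest or lowest ratio in each list, the 5 genes most like Camk2a, and extreme markers. Calm2, Camk1, Camk1d, Dclk1 and Mylk2 lie outside that rule and were added with their values in view, and 1 list gene within it is not reported here. The members and lists were chosen with earlier results of these data known. Alternatives tried were loess, median centring, normexp (offset 50, on median signals, the only raw signals held), subtraction with a floor of 0.5, the deposited table, the mean over probes, filters on dim probes, the slide as a block or within slides, and leaving out arrays.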

Additional observations from a re-analysis of the deposited data

Results flagged for a closer look

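For 3 of the 15 member probes, 1 array lay further from the others than Dixon's test for 10 values allows, and by chance about 1 in 20 groups is so marked, which is 0.75 probes here. The array was C10-434 each time. Camk2a stood at 5.48 there, against 4.30 to 4.71 on the other 9 arrays. Camk2b stood at 6.66, against 5.16 to 5.82, and Nrgn at 6.68, against 5.12 to 5.83. The 3 genes are not independent, since they share the array, whose share of probes detected in Cy-5 was 49.6%, against 68.2% to 76.9%. The part of that signal in these values was not tested. Camk2a was set apart under all 6 ways of processing the signals, whereas Camk2b and Nrgn were not under normexp or with subtraction to a floor. The deposited table, counted among the 6, nearly repeats the values used.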

How the results depend on the processing

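The count of members called higher was 9 or 10 under every alternative run, and it was 9 within slide 2, against a 2-fold difference and with the mean over probes, where Camk2d was the exception. Camk2d gave -0.35 with the mean over probes, which made 1 member lower instead of 0. Its 0.36 was not called against a 2-fold difference (limma, adjusted p = 1), nor was its 0.35 within slide 2 (adjusted p = 0.0578). The count of 7 pathway genes called lower fell to 1 against a 2-fold difference. Members with an array set apart numbered 3 as reported, 5 with loess, 6 with normexp and 0 without C10-434. With normexp the array was C10-413 for 5 of the 6, and C10-434 for Camk2a alone, so that Camk2b and Nrgn were no longer set apart. Nor were they with the floor, which left 2, Camk2a and Pcp4. Probes called between slides numbered 30 as reported, 0 with normexp, 1 with the floor, 0 without C10-434 and 68 with only probes well above background in Cy-5, and 0 to 18 when each array was left out in turn. With each array left out, the slide difference ran from -0.0996 to 0.295 for Camk2a, -0.0954 to 0.317 for Camk2b, -0.254 to 0.259 for Camkv and -0.217 to 0.257 for Pcp4, with the lowest value of each without C10-434. It was also below 0 without C10-423 for Camkv (-0.094) and Pcp4 (-0.034). Without C10-434 the ranges over arrays narrowed by more than 1.5 times for Camk2a (1.18 to 0.41), Camk2b, Camk4, Camkk1, Camkv, Nrgn and Pcp4. The causes were not tested. The normexp fit was implausible on C10-413, with a median corrected Cy-5 signal of 4004. No analysis with animals paired was possible because the arrays form 1 group and their replicate numbers follow accession order. The paired tests above compare probes within arrays.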
